A study of Mus musculus with 14 samples.

Results

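The genes described here are 10 members of the p53 and Foxo stress network: the sestrins Sesn1, Sesn2 and Sesn3, the p53 targets Mdm2, Ccng1, Bbc3, Pmaip1 and Gadd45a, and the transcription factors Foxo1 and Foxo3. They were chosen by symbol, through the array's annotation, with earlier results of these data known. They account for 24 of 45101 probe sets and 10 of 18194 genes. The brightest probe set by mean over the 14 arrays stood for each gene, and the others served as a check. Expression was measured on Affymetrix arrays in LSK cells, the bone marrow fraction without lineage markers and with Sca1 and Kit on the surface, in which hematopoietic stem cells (HSCs) lie beside multipotent progenitors. All mice had a C57BL/6 background and carried both an hCD34 promoter construct (huCD34-tTA) and Tet-O-H2B-GFP, so that the promoter of human CD34 drove a GFP-tagged histone. From 6 to 8 weeks of age all of them drank water with doxycycline (1 mg/ml), for 12 weeks in total. The drug switched the label off, and later divisions thinned it out. The cells were sorted into 5 ranked levels, GFP0 (most diluted, 2 arrays), GFP1 (3), GFP2 (3), GFP3 (2) and GFP4 (most retained, 4). The label can report only on cells in which the human CD34 promoter was active before the chase, and no unlabelled or untreated group was analysed here. The arrays are labelled biological replicates without naming animals, and p-values therefore cover no more than the variation among these sorts, which may in part be technical.

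In the p53 pathway, DNA damage and other stresses stabilise the transcription factor p53, which induces genes of cell cycle arrest, DNA repair and apoptosis as well as Mdm2, the ligase that marks p53 for degradation. Sestrins are stress-induced proteins that restrain the growth kinase complex mTORC1 and support antioxidant defence; p53 induces Sesn1 and Sesn2, Foxo factors induce Sesn3, and the stress factor ATF4 also induces Sesn2. Foxo factors are held in the cytoplasm by insulin and growth factor signalling through AKT, and in HSCs they are known for their part in quiescence and in keeping oxidative damage low.

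All values are log2 expression, and slopes are log2 units per GFP level. Pairs of arrays from 1 group correlated with r between 0.928 and 0.990 over all genes. GFP0 replicate 1 and GFP4 replicate 1 had the narrowest interquartile ranges (2.09 and 2.21, against up to 2.73), and GFP4 replicate 2 stood apart from the rest on the third principal component. Several results that rest on these arrays are given with and without them. Kit (8.05 to 9.91), Cd34 (9.73 to 12.01), Flt3 (10.18 to 11.70) and Ptprc (9.90 to 12.66) were above the table median of 7.03 in every array. So were some genes of lineage-positive cells, among them Cd3e (lowest 7.10), Cd4 (8.08), Cd79b (9.27), Ighm (9.29), Csf1r (8.54) and Lyz2 (10.46). Other markers of such cells were below the median in every array, among them Cd3g (highest 6.22), Ebf1 (6.00) and Itgam (5.60). Cd79a (6.16 to 7.43) lay on both sides of it. These levels therefore do not by themselves show the purity of the sorts. Ly6a, which encodes Sca1, was not analysed here. The number of arrays limits the precision of every value.

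Across the 5 levels 1 of the 10 members, Sesn2, rose with retained label, and none fell. Of all 18194 genes, 3.35% passed the slope test in either direction (limma, Benjamini-Hochberg adjusted p under 0.05), 2.28% upwards and 1.07% downwards, so a single call among 10 genes says little about the members as a group. The slopes of 8 members were above 0; their median was 0.09, and that of all genes was -0.01. At an unadjusted p under 0.05, 4 members passed (Sesn2, Sesn3 and Foxo3 upwards, Pmaip1 downwards), beside 16.7% of all genes. Between GFP4 and GFP0, again 1 member passed (Sesn2), against 1.68% of all genes (1.25% upwards), and the median difference was 0.44 in the members and -0.04 in all genes. The arrays of GFP4 and GFP0 did not overlap for 4 members, Sesn1, Sesn2 and Foxo3 with GFP4 higher and Pmaip1 with GFP4 lower, as was the case for 18.1% of all genes. Those of GFP4 and GFP1 did not overlap for 2 members, Sesn2 and Foxo3, and for 9.97% of all genes.

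**Figure D1:**
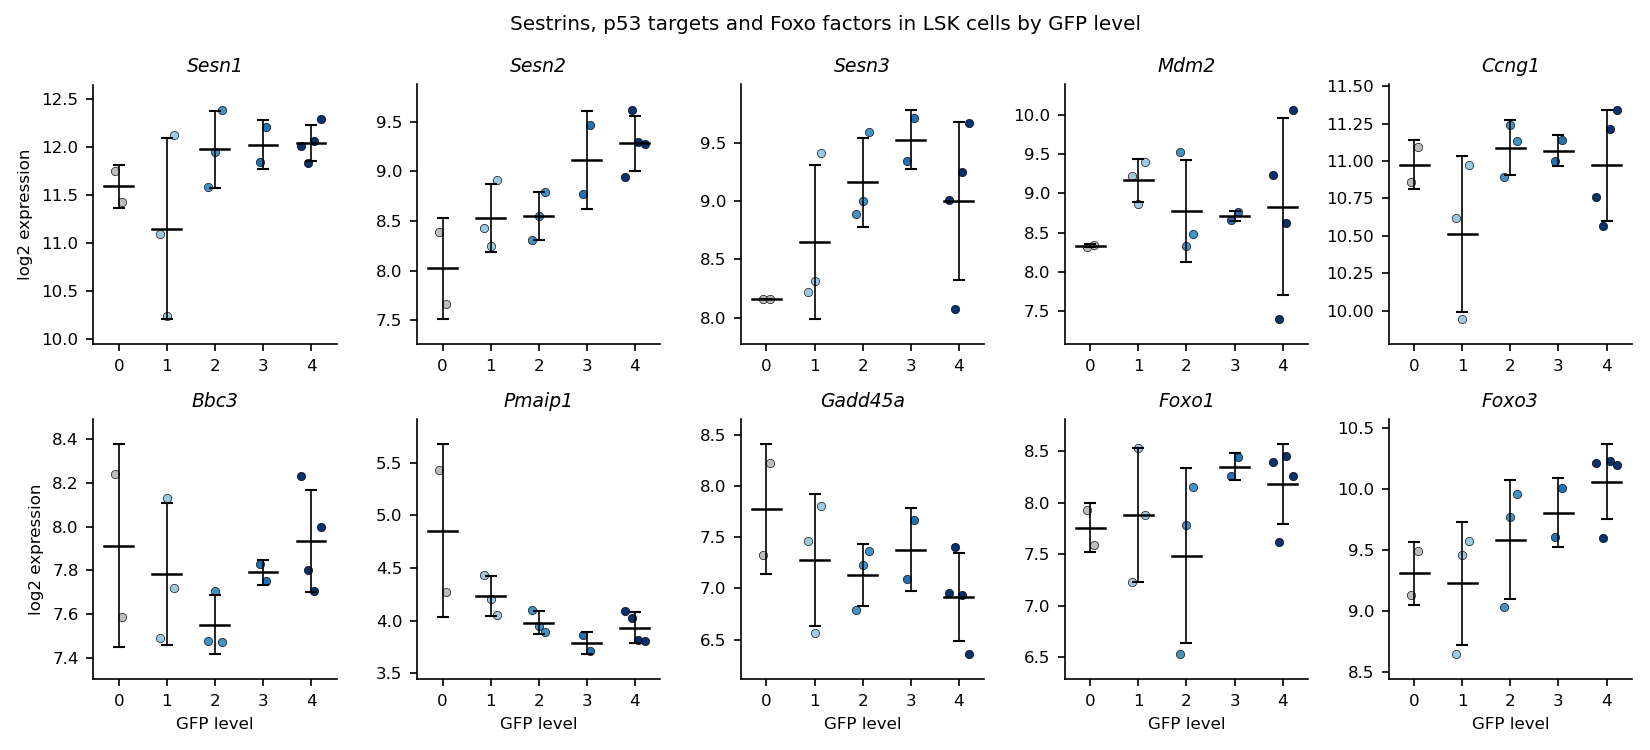
Log2 expression (y axis) of each member against the GFP level (x axis, 0 most diluted, 4 most retained); points are arrays, and bars are the mean and SD of a level (n = 2, 3, 3, 2 and 4). The means of Sesn2 go from 8.02 at GFP0 to 9.28 at GFP4, whereas Mdm2, Ccng1 and Bbc3 show no order by level.

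Sesn2, the sestrin that answers to p53 and to amino acid and endoplasmic reticulum stress, was read by 2 probe sets. The brighter gave 8.39 and 7.66 in GFP0, 8.43, 8.25 and 8.91 in GFP1, and 8.31, 8.55 and 8.79 in GFP2. It gave 8.77 and 9.46 in GFP3, and 8.94, 9.62, 9.30 and 9.27 in GFP4. All 4 GFP4 arrays were above every array of GFP0, GFP1 and GFP2, and they overlapped with those of GFP3. The mean went from 8.02 ± 0.51 (SD, n = 2) in GFP0 through 8.53 ± 0.34 (SD, n = 3), 8.55 ± 0.24 (SD, n = 3) and 9.11 ± 0.49 (SD, n = 2) to 9.28 ± 0.28 (SD, n = 4) in GFP4. The slope was 0.31 ± 0.06 per level (SE, 95% interval 0.17 to 0.45, limma adjusted p = 0.0228), and the difference between GFP4 and GFP0 was 1.26 ± 0.29 (SE, 95% interval 0.64 to 1.88, adjusted p = 0.046). None of its 4 steps between neighbouring levels passed; the widest were GFP2 to GFP3 (0.56 ± 0.30, SE) and GFP0 to GFP1 (0.50 ± 0.30, SE). The dimmer probe set had a slope of 0.14 ± 0.05 (SE, limma adjusted p = 0.2) and correlated with the brighter one at only r = 0.30 over the 14 arrays. Its means were 7.65 in GFP0, 8.26 in GFP1, 8.22 in GFP2, 8.43 in GFP3 and 8.27 in GFP4. It was thus lowest in GFP0 and showed no steady rise from GFP1 to GFP4.

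The slope of Sesn2 passed in 11 of the 14 fits that left out 1 array. It did not pass without GFP0 replicate 2 (0.24, adjusted p = 0.114), without GFP3 replicate 2 (0.28, adjusted p = 0.0807) or without GFP4 replicate 4 (0.31, adjusted p = 0.0512). The difference between GFP4 and GFP0 passed in 3 of these 14 fits (without GFP1 replicate 2, GFP1 replicate 3 or GFP4 replicate 1), and without GFP0 replicate 2 it was 0.90 (adjusted p = 0.178). Without the GFP0 and GFP4 arrays numbered 1, the slope was 0.41 (adjusted p = 0.0387) and the difference 1.73 (adjusted p = 0.0835). In the gap between the 3 prime and 5 prime control probe sets, RNA integrity and the amplification of the RNA cannot be told apart. For Actb this gap had a mean of 4.45 in GFP0, 3.96 in GFP1, 3.71 in GFP2, 4.10 in GFP3 and 4.64 in GFP4. The same gap of Gapdh had means of 5.15, 5.53, 5.63, 6.34 and 5.80 in that order, lowest in GFP0 and highest in GFP3. With both gaps as covariates the slope of Sesn2 was 0.27 (adjusted p = 0.18).

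Levels of marker genes of several cell types also differed between the GFP levels. By the slope test, 2.28% of all genes rose and 1.07% fell. Over 9 HSC markers the mean level lay between 7.91 and 8.27 in GFP0 and between 9.53 and 10.40 in GFP4, and 6 of the 9 rose. Over 12 neutrophil and monocyte markers it lay between 10.12 and 11.58 in GFP0 and between 7.64 and 9.94 in GFP4, with 1 of the 12, Ltf, lower. Over 8 mast cell and basophil markers it went from between 8.76 and 9.22 to between 6.86 and 8.40, with 3 lower. Over 9 B and plasma cell markers 2 fell, over 10 T and NK cell markers 1 fell, and over 9 cycling genes 2 fell. Over 6 erythroblast markers the mean level averaged 7.67 in GFP0 and 6.95 in GFP4, and 1 of them, Klf1, fell (slope -0.70, limma adjusted p = 0.0362). Their part in the Sesn2 slope was not tested, and in such sorted bulk samples fewer cells of a type and less RNA per cell cannot be told apart.

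Sesn1, the sestrin named first as a p53 target, was 11.75 and 11.43 in GFP0, 11.09, 10.23 and 12.12 in GFP1, 11.58, 11.94 and 12.39 in GFP2, 11.84 and 12.20 in GFP3, and 12.00, 11.83, 12.05 and 12.28 in GFP4. The lowest values were those of 2 GFP1 arrays, and the third GFP1 array lay among those of GFP4. The slope of 0.18 ± 0.09 per level (SE, 95% interval -0.01 to 0.37, adjusted p = 0.341) did not pass. The difference between GFP4 and GFP1 was 0.90 ± 0.35 (SE, adjusted p = 0.276); without GFP1 replicate 3 it was the 1 member to pass in that comparison. The other 3 Sesn1 probe sets had slopes of 0.21, 0.16 and 0.11, none of which passed.

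Sesn3, the sestrin under Foxo control, was 8.16 in both GFP0 arrays, 8.22, 8.32 and 9.41 in GFP1, between 8.89 and 9.60 in GFP2, 9.35 and 9.71 in GFP3, and 9.01, 8.07, 9.25 and 9.67 in GFP4. Every array of GFP1, GFP2 and GFP3 was above both GFP0 arrays, and GFP4 replicate 2 alone lay below them. The slope was 0.26 ± 0.09 per level (SE, 95% interval 0.05 to 0.46, adjusted p = 0.173). Without GFP4 replicate 2 it was 0.32 and passed (limma adjusted p = 0.0407). That was the 1 fit to pass of the 14 that left out 1 array, and 0 of 13 other alternatives passed. The second probe set, dimmer at a mean of 6.43, had a slope of 0.23 ± 0.09 (SE, limma adjusted p = 0.202). It correlated with the first at r = 0.46. Its means were 5.56 in GFP0, 6.48 in GFP1, 6.53 in GFP2, 6.75 in GFP3 and 6.60 in GFP4, with the widest step from GFP0 to GFP1.

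The 3 sestrins could not be separated from each other in their slopes. Per array, Sesn2 minus Sesn1 had a slope of 0.13, Sesn2 minus Sesn3 of 0.05 and Sesn3 minus Sesn1 of 0.08 (two-sided exact permutation tests over 25225200 assignments of the arrays to levels; adjusted p = 0.466, 0.662 and 0.52 over 5 such differences). A call for Sesn2 and none for Sesn1 and Sesn3 is thus not shown to be a difference between them.

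The promoters of the sestrins are printed because the 3 genes had slopes on the same side of 0, and those of Trib3 and Nupr1 because these stress genes rose with the level, as given further on. Each is the RefSeq sequence (GRCm38.p6) of the 250 bases before the start, 5′ to 3′ on the gene's strand. Capitals mark CCAAT boxes (CCAAT, or ATTGG on the other strand), GC boxes (GGGCGG, or CCGCCC) and the composite site of CHOP and ATF4 (TGATGNAA, on either strand). Sesn1 (the upstream one of 2 starts) lies at chr10:41810324-41810573 on the plus strand, Sesn2 at chr4:132510457-132510706 on the minus strand, Sesn3 at chr9:14276051-14276300 on the plus strand, Trib3 at chr2:152344061-152344310 on the minus strand and Nupr1 at chr7:126625471-126625720 on the minus strand.
Sesn1: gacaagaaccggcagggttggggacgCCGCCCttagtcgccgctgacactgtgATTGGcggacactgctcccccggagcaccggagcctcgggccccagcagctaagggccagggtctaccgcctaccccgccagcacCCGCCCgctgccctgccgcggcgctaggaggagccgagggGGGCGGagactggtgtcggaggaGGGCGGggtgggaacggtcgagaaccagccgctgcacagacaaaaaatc
Sesn2: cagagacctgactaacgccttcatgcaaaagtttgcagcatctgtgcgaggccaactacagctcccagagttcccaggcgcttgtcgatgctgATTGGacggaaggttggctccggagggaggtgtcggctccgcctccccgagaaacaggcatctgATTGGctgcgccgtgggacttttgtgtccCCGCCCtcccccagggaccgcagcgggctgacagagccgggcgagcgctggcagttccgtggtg
Sesn3: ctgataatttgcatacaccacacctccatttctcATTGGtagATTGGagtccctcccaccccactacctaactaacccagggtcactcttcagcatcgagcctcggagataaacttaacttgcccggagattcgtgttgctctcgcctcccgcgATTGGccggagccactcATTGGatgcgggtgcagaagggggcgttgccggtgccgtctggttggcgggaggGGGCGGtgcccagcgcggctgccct
Trib3: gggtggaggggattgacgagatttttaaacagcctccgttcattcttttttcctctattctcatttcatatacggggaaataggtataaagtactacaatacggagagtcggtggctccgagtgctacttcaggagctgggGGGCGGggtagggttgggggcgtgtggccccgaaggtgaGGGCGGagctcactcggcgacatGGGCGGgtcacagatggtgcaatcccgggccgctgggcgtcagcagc
Nupr1: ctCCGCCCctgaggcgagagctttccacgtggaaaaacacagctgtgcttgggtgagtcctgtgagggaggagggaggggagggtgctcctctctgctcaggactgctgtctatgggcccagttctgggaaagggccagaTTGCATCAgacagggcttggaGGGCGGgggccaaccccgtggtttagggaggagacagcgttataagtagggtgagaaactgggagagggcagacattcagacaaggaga
On both strands, CCAAT boxes numbered 1 in Sesn1, 2 in Sesn2 and 4 in Sesn3, and 33.8% of 32851 promoter windows of this length held at least 1. GC boxes numbered 4, 1 and 1, and 32.7% of windows held one. The CHOP and ATF4 site occurred in Nupr1 and not in the printed windows of Sesn2 or Trib3, and was held by 3.45% of windows. The FOXO site GTAAACA (or TGTTTAC) occurred in none of these 5 windows; among the members it was found in Mdm2 and in 1 of 3 windows of Bbc3, and 3.17% of all windows held it. No window of the 9 members matched to a promoter held a full p53 response element, which 0.0639% of windows held. Single p53 half-sites lay in Mdm2, Ccng1, Gadd45a and the downstream window of Sesn1, and in 7.13% of windows. A match is a description of letters and not a binding site. An absence covers these 250 bases only and does not show that a gene lacks such a site elsewhere.

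Foxo3, the Foxo factor known for its part in HSC maintenance, was 9.13 and 9.49 in GFP0, 8.65, 9.46 and 9.58 in GFP1, 9.03, 9.77 and 9.96 in GFP2, 9.61 and 10.01 in GFP3, and 10.21, 9.60, 10.23 and 10.20 in GFP4. All GFP3 and GFP4 arrays were above all GFP0 and GFP1 arrays, although GFP4 replicate 2 (9.60) barely cleared the highest GFP1 array (9.58). GFP0 averaged 9.31 (SD 0.26, n = 2) and GFP4 10.06 (SD 0.31, n = 4). The slope of 0.21 ± 0.07 per level (SE, 95% interval 0.05 to 0.36) did not pass (adjusted p = 0.148), and neither did the difference of 0.75 ± 0.32 between GFP4 and GFP0 (SE, adjusted p = 0.289). A second probe set had a slope of 0.12 ± 0.06 (SE) and correlated with the first at r = 0.85; the third, dim at a mean of 6.06, had one of -0.07 ± 0.08 (SE).

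Foxo1 was 7.93 and 7.59 in GFP0, 7.23, 8.53 and 7.88 in GFP1, 6.53, 7.78 and 8.15 in GFP2, 8.26 and 8.45 in GFP3, and 8.40, 7.61, 8.45 and 8.26 in GFP4. The highest single value lay in GFP1 and the lowest in GFP2. Both GFP3 arrays were above every array of GFP0 and GFP2, while all other pairs of levels overlapped. Its slope of 0.13 ± 0.10 per level (SE, 95% interval -0.08 to 0.34, adjusted p = 0.55) did not pass, and those of the other 3 probe sets lay between -0.02 and 0.08. The slopes of Foxo3 and Foxo1 differed by 0.08 (two-sided exact permutation test, adjusted p = 0.52).

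Pmaip1 and Bbc3 encode NOXA and PUMA, BH3-only proteins through which p53 triggers apoptosis. Pmaip1 had the steepest slope downwards of the 10, from 5.43 and 4.27 in GFP0 and 4.43, 4.20 and 4.06 in GFP1 to 4.10, 3.95 and 3.90 in GFP2, 3.86 and 3.72 in GFP3, and 4.09, 4.02, 3.81 and 3.81 in GFP4. GFP0 replicate 1 stood 1.00 above the next array. At a mean of 4.12 its probe set was far below the table median, and no detection calls come with the data, so these values may hold little signal from the transcript. The slope of -0.23 ± 0.06 per level (SE, 95% interval -0.35 to -0.10) missed the threshold (adjusted p = 0.0523); it was -0.11 (adjusted p = 0.293) without GFP0 replicate 1, and -0.34 and past the threshold (adjusted p = 0.00549) without GFP0 replicate 2.

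Bbc3 was 8.24 and 7.59 in GFP0, 7.49, 8.13 and 7.72 in GFP1, 7.48, 7.71 and 7.47 in GFP2, 7.83 and 7.75 in GFP3, and 8.23, 7.80, 7.71 and 8.00 in GFP4. Arrays of GFP0 and GFP4 spanned nearly the same range. The slope was 0.00 ± 0.05 per level (SE, 95% interval -0.11 to 0.12, adjusted p = 0.977). The slope of Bbc3 was above that of Pmaip1 by 0.23 (two-sided exact permutation test, p = 0.000665, adjusted p = 0.00332), the 1 family difference of 5 that passed. Without GFP0 replicate 1 it was 0.18 and did not pass (adjusted p = 0.0736), and it did not pass without the GFP0 and GFP4 arrays numbered 1 either (0.17, adjusted p = 0.118).

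Gadd45a, which p53 induces to hold cells at G2 and to assist repair, was 7.32 and 8.22 in GFP0, 7.46, 6.56 and 7.81 in GFP1, 6.79, 7.22 and 7.37 in GFP2, 7.09 and 7.67 in GFP3, and 6.96, 7.40, 6.94 and 6.36 in GFP4. GFP4 replicate 2 overlapped with GFP0, while the other 3 GFP4 arrays were below both GFP0 arrays. The slope was -0.16 ± 0.09 per level (SE, 95% interval -0.34 to 0.02, adjusted p = 0.373), and GFP4 minus GFP0 was -0.86 ± 0.38 (SE, adjusted p = 0.312).

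Mdm2, the negative regulator of p53, was 8.32 and 8.35 in GFP0, 9.23, 8.86 and 9.41 in GFP1, 9.52, 8.33 and 8.48 in GFP2, 8.67 and 8.76 in GFP3, and 9.23, 7.40, 8.62 and 10.07 in GFP4. The lowest and the highest of the 14 arrays were both in GFP4, and the spread within levels exceeded that of 97.2% of genes. Its slope was 0.05 ± 0.12 per level (SE, 95% interval -0.21 to 0.32, adjusted p = 0.867). The other 2 probe sets correlated with this one at r = -0.42 and 0.07 and had slopes of 0.10 and -0.03, so the array gives no single reading of Mdm2.

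Ccng1, a cyclin G that p53 induces and that acts on Mdm2, was 10.86 and 11.09 in GFP0, 10.62, 9.94 and 10.97 in GFP1, 10.89, 11.24 and 11.14 in GFP2, values up to 11.14 in GFP3, and 10.76, 10.56, 11.21 and 11.34 in GFP4. The GFP1 arrays held the lowest value and lay below both GFP3 arrays, while all other pairs of levels overlapped. The slope was 0.05 ± 0.06 per level (SE, 95% interval -0.08 to 0.19, adjusted p = 0.733), whereas the other 2 probe sets had slopes of -0.11 ± 0.08 and -0.10 ± 0.06 (SE).

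**Figure D2:**
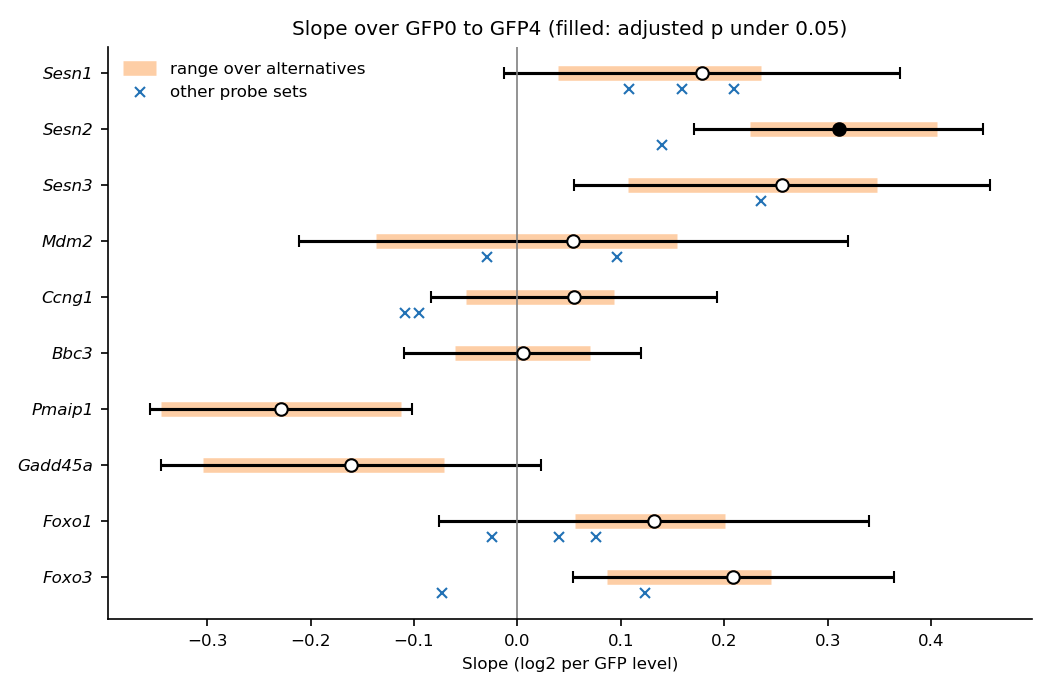
Slope in log2 units per GFP level (x axis) for each member (y axis); circles with bars are the limma estimate and its 95% interval, filled where the adjusted p was under 0.05, orange bands are the range over the alternative settings and crosses are the other probe sets. Sesn2 at 0.31 is the 1 filled circle, and the crosses of Mdm2, Ccng1, Foxo1 and Foxo3 lie on both sides of 0 or opposite to the circle.

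No step between neighbouring levels passed for any member in limma. At an unadjusted p under 0.05, 1 member passed from GFP0 to GFP1 (Pmaip1, -0.62 ± 0.27, SE, adjusted p = 0.453) and 2 from GFP1 to GFP2 (Sesn1, 0.82 ± 0.37, SE, and Ccng1, 0.58 ± 0.27, SE, both with adjusted p = 1.00), beside 10.8% and 2.71% of all genes; none did at the 2 upper steps (1.36% and 3.94% of all genes). No gene of the 18194 passed at any step either. Between GFP4 and GFP1, which leaves out the GFP0 arrays, 0 members and 0.989% of all genes passed. At an unadjusted p under 0.05, 3 members did, Sesn1, Sesn2 (0.76 ± 0.25, SE) and Foxo3 (0.83 ± 0.28, SE), beside 12.7% of all genes. The moderated F test for any difference between levels called 0 members and 0.698% of all genes (2 members at an unadjusted p under 0.05, beside 12.8%). That for a departure from a straight line called none of the members and none of the genes (0 members at an unadjusted p under 0.05, beside 7.01% of genes).

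Other genes of the same pathways were read from lists of known members, chosen with earlier results of these data known. Of 26 measured p53 pathway genes, Ephx1 rose, Cdkn1a and Rps27l fell, and 23 did not pass the slope test. Of all genes, 3.35% passed it. The median slope of the list was -0.04, and that of all genes was -0.01. Trp53 itself and Bax were not analysed here. Cdkn1a, the CDK inhibitor p21 and the best-known p53 target, was 9.40 and 8.73 in GFP0, 9.30, 9.10 and 8.61 in GFP1, between 8.27 and 8.40 in GFP2 and GFP3, and 8.21, 7.96, 7.93 and 8.41 in GFP4. Every GFP0 and GFP1 array was above every array of the 3 higher levels. Its slope was -0.25 ± 0.05 (SE, adjusted p = 0.0243), and -0.19 (adjusted p = 0.16) without GFP0 replicate 1; it did not pass without either GFP3 array (-0.25 and -0.26), without the GFP0 and GFP4 arrays numbered 1 (-0.19, adjusted p = 0.166), with array quality weights (-0.25, adjusted p = 0.16) or with the 3 prime to 5 prime covariates (-0.26, adjusted p = 0.122). A second probe set had a slope of -0.06 ± 0.04 (SE) and did not pass.

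Ephx1, an epoxide hydrolase, averaged 6.83 (SD 0.71, n = 2) in the GFP0 arrays and 8.53 (SD 0.61, n = 4) in the GFP4 arrays. It rose by 0.45 ± 0.09 per level (SE, limma adjusted p = 0.0159; 0.36, adjusted p = 0.0934 without GFP0 replicate 2 and 0.42, adjusted p = 0.059 without GFP3 replicate 2). It did not pass with array quality weights (0.50, adjusted p = 0.083) or with the 3 prime to 5 prime covariates (0.33, adjusted p = 0.142). Rps27l, a ribosomal protein paralog induced by p53, averaged 12.18 (SD 0.18, n = 2) in the GFP0 arrays and 11.23 (SD 0.34, n = 4) in the GFP4 arrays (slope -0.24 ± 0.06, SE, limma adjusted p = 0.0362). Its brightest probe set ends in _x_at, a kind that can bind related transcripts, and the others had slopes of -0.26 and -0.29. It passed in 6 of the 14 fits without 1 array; the call was lost without either GFP0 array, GFP1 replicates 1 or 2, GFP2 replicates 1 or 2, GFP3 replicate 2 or GFP4 replicate 4 (slopes from -0.27 to -0.21). Mdm4, the partner of Mdm2, had a slope of -0.06 ± 0.07 (SE, adjusted p = 0.711).

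Among 20 Foxo targets 2 rose, Txnip and Pik3ip1, and 18 did not pass, where 2.28% of all genes rose. In this list 15 slopes were above 0, with a median of 0.11, and the median of all genes was -0.01. Pik3ip1, an inhibitor of PI3 kinase, was 9.71 and 9.74 in GFP0 and between 10.85 and 11.52 in GFP4, with a slope of 0.38 ± 0.08 (SE, adjusted p = 0.0209). It did not pass without GFP0 replicate 1 (0.38, adjusted p = 0.103), GFP0 replicate 2 (0.38, adjusted p = 0.0714) or GFP3 replicate 2 (0.35, adjusted p = 0.0764). Nor did it pass without the GFP0 and GFP4 arrays numbered 1 (0.38, adjusted p = 0.139), with array quality weights (0.36, adjusted p = 0.256) or with the 3 prime to 5 prime covariates (0.30, adjusted p = 0.151). Txnip, which binds thioredoxin and limits glucose uptake, spanned 9.68 to 10.33 in GFP0 and 11.01 to 12.15 in GFP4 (slope 0.43 ± 0.11, SE, limma adjusted p = 0.0445). It passed in 4 of the 14 fits without 1 array, those without GFP1 replicate 3, GFP2 replicates 1 or 3, or GFP4 replicate 2 (slopes from 0.36 to 0.49 over all 14). A second Txnip probe set had a slope of 0.13 ± 0.07 (SE, limma adjusted p = 0.396). Averaged over its probe sets, the Txnip slope was 0.28 and did not pass (limma adjusted p = 0.055). The antioxidant enzymes Sod2 (-0.11) and Cat (0.04) did not pass.

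None of 23 genes of mTORC1, GATOR and AMPK, the machinery on which sestrins act, passed the slope test, beside 3.35% of all genes. So short a list may hold no call at that share. The median slope of the list was 0.01, and that of all genes was -0.01. Among 12 genes of the Bcl2 family, on which PUMA and NOXA act, Bcl2 fell and 11 did not pass, where 1.07% of all genes fell. Bcl2, which holds apoptosis back, spanned 11.29 to 11.84 in GFP0 and 10.19 to 10.89 in GFP4 (slope -0.35 ± 0.09, SE, adjusted p = 0.0475), and passed in 3 of the 14 fits without 1 array, those without GFP1 replicate 3, GFP3 replicate 1 or GFP4 replicate 2 (slopes from -0.42 to -0.28 over all 14). Its brightest probe set also ends in _x_at, and the others had slopes of -0.40, -0.21, -0.17 and -0.09. With each probe set fitted alone, none of Bcl2 passed (limma adjusted p from 0.0544 to 0.536, and 0.0602 for the brightest). None of 5 measured paralogs of the members (Gadd45b, Gadd45g, Ccng2, Mdm4 and Foxo4) passed, beside 3.35% of all genes.

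**Figure D3:**
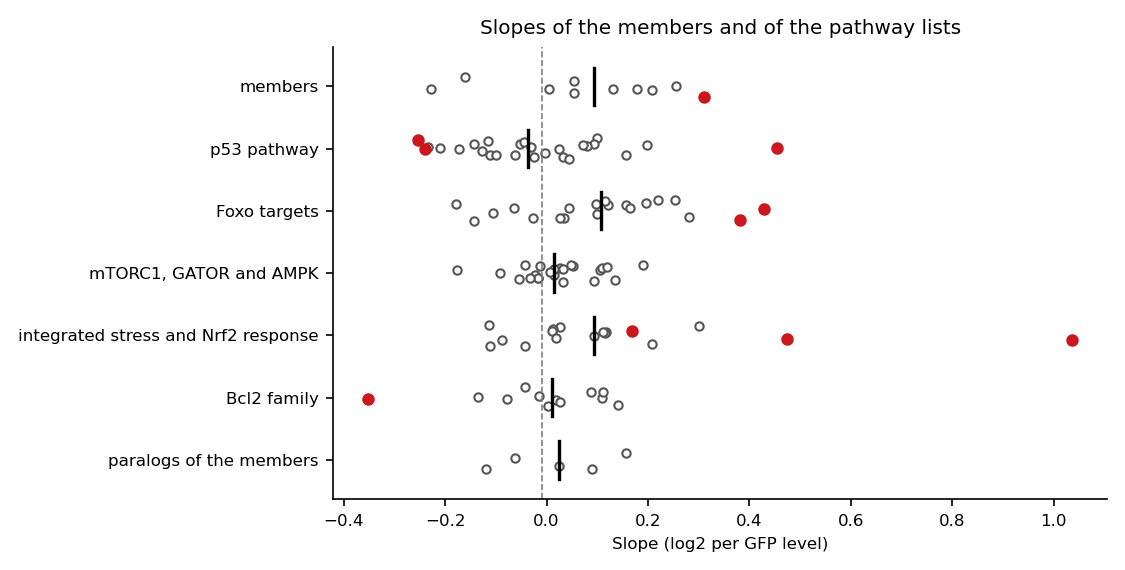
Slope in log2 units per GFP level (x axis) of each gene of the members and of the 6 pathway lists (y axis); red points passed the slope test, short black lines are list medians and the dashed line is the median of all genes. Trib3 stands far to the right at 1.04, and no gene of the mTORC1 list is red.

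The integrated stress response and the Nrf2 response also feed into Sesn2. Of 17 of their genes 3 rose, Trib3, Nupr1 and Ddit3, and none fell, where 2.28% of all genes rose and 1.07% fell. Nfe2l2, which encodes Nrf2, had a slope of 0.03 and did not pass. Nor did Nqo1 (0.01), Hmox1 (-0.11), Gclm (0.01), Gclc (0.02), Srxn1 (0.09) or Txnrd1 (0.21) of the Nrf2 response. Trib3, a pseudokinase induced by ATF4 and CHOP, was 6.96 and 7.01 in GFP0, 7.90, 8.55 and 9.30 in GFP1, 8.84, 9.05 and 9.93 in GFP2, 10.19 and 10.49 in GFP3, and 11.30, 11.26, 11.02 and 11.56 in GFP4. Its levels lay in order, and only those of GFP1 and GFP2 overlapped. The slope was 1.04 ± 0.08 per level (SE, adjusted p = 7.36e-05), it passed in all 14 fits without 1 array and in all 13 other alternatives, and a second probe set gave 0.50 ± 0.09 (SE, adjusted p = 0.0157). The brightest Trib3 probe set ends in _x_at.

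Nupr1, a stress-induced chromatin protein, was 7.11 and 6.97 in GFP0 and between 8.08 and 9.43 in GFP4, with a slope of 0.47 ± 0.09 (SE, adjusted p = 0.0174; 0.49, adjusted p = 0.082 without GFP0 replicate 1 and 0.46, adjusted p = 0.0722 without GFP0 replicate 2). It did not pass with array quality weights (0.46, adjusted p = 0.19) or without the GFP0 and GFP4 arrays numbered 1 (0.49, adjusted p = 0.119). Ddit3, which encodes CHOP, was between 9.43 and 9.91 in all 10 arrays of GFP0 to GFP3 and 10.45, 10.63, 10.48 and 10.29 in GFP4, so its higher values lay in the most retained level alone. Its slope of 0.17 ± 0.04 (SE, adjusted p = 0.0346) passed in 6 of the 14 fits without 1 array; the call was lost without either GFP0 or GFP3 array, GFP2 replicate 2, or GFP4 replicates 2, 3 or 4 (slopes from 0.15 to 0.18). Averaged over its probe sets it was 0.04 (adjusted p = 0.635). Its other probe set had a slope of -0.08 ± 0.05 (SE). Atf4 (0.12), Asns (-0.11), Chac1 (-0.04) and Atf3 (-0.09), further genes of the same response, did not pass. Of the 9 pathway genes past the slope threshold, Trib3 alone passed with array quality weights, and Trib3 and Nupr1 alone passed with the 3 prime to 5 prime covariates.

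**Figure D4:**
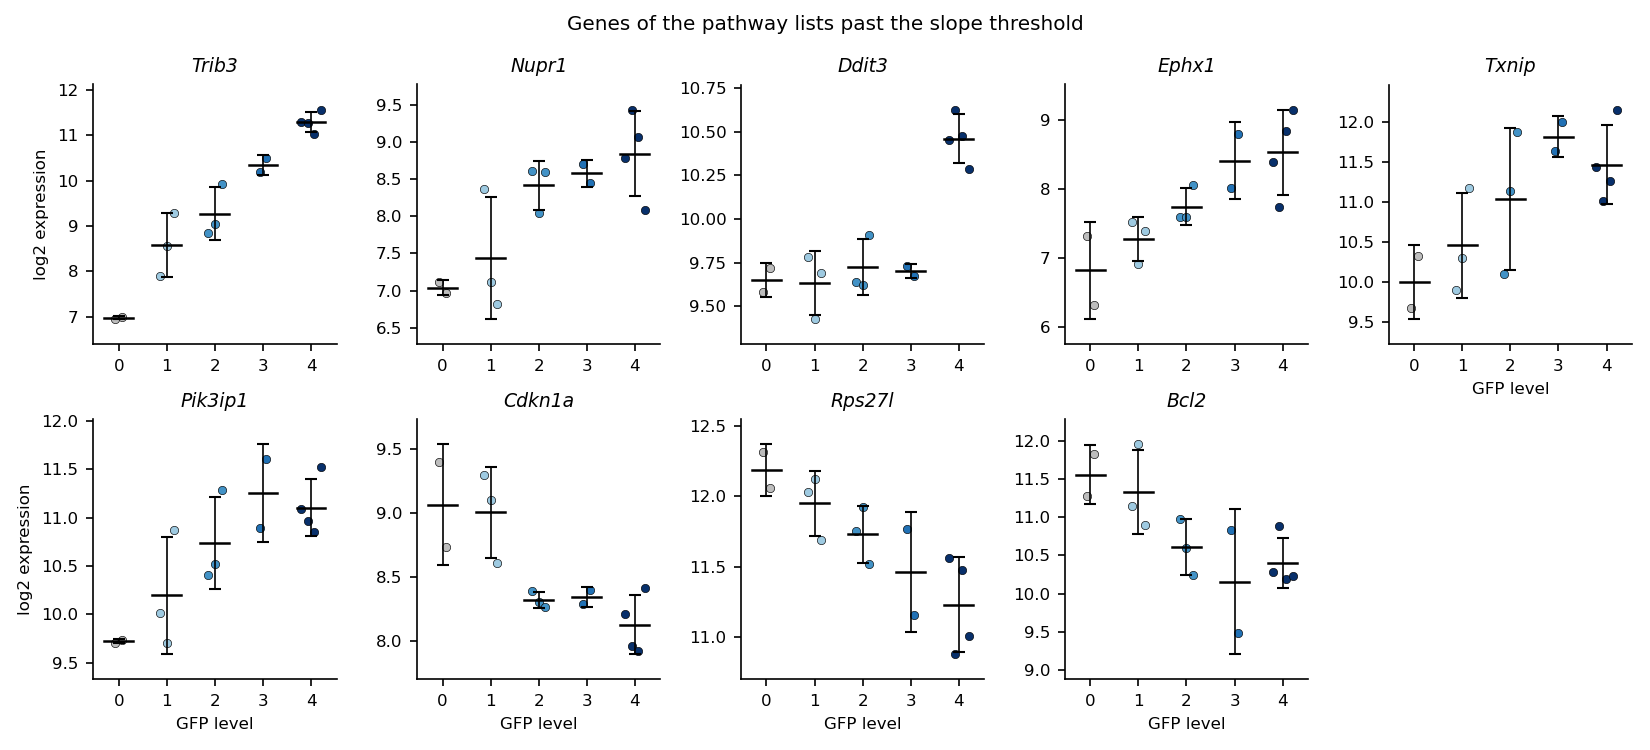
Log2 expression (y axis) of the 9 pathway genes past the slope threshold against the GFP level (x axis); points are arrays, and bars are the mean and SD of a level (n = 2, 3, 3, 2 and 4). Trib3 rises at each level, Ddit3 is higher at level 4 alone, and Cdkn1a is lower from level 2 on.

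The genes whose course over the 14 arrays was most like that of Sesn2, by the root mean square difference of gene-centred log2 values, were Cerox1 (0.24), Armcx6 (0.24) and Cyp4f13 (0.26), where the median over all genes was 0.61. Of these, Cerox1 (slope 0.34) and Armcx6 (0.27) passed the slope test and Cyp4f13 (0.18) did not.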

How the data were processed

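Each of 14 arrays held amplified, biotin-labelled cRNA of 1 sort, per the labels' protocols, and the submitters' processing notes name GCOS, RMA and affy with no version. The authors deposited log2 probe-set expression (2.69 to 15.13); the genome build is not given in the sources used here, and no detection calls come with the values. The RefSeq tables (GRCm38.p6) were used for names and promoters; 9 members were matched to a promoter there, and that of Pmaip1 was not analysed here. Columns were matched to samples by label, and 0 were left over.

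The deposited values were used as they are. Their array medians (6.96 to 7.18) and interquartile ranges (2.09 to 2.73) still differ, so although RMA is named, the last normalization step behind them is unclear. Of 45101 probe sets 34958 named 1 gene, 932 several and 9211 none. A gene was its brightest probe set with 1 symbol, which gave 18194 genes. In limma 3.58.1 (R 4.3.3) a mean per level was fitted over the 14 arrays, with variances moderated by eBayes (residual degrees of freedom 9, prior 3.99). Contrasts were the linear slope with equal weight per level, GFP4 against GFP0 and GFP1, and the 4 steps; F tests covered any difference and departure from linearity. P-values are two-sided, adjusted by Benjamini and Hochberg's method across the 18194 genes, and called under 0.05. Slopes were compared within families by exact permutation. Fits were tested on simulated data. Figures used matplotlib 3.10.9.

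The members and gene lists were chosen with earlier results of these data known. All members are named; of each list, up to 4 genes past the slope threshold are named, plus Cdkn1a and Mdm4, and the 3 genes most alike are given for members past it. Atf4, Asns, Chac1, Atf3, Sod2, Cat, Nfe2l2, Nqo1, Hmox1, Gclm, Gclc, Srxn1 and Txnrd1 were added after their values were seen. Alternatives were median centring, cyclic loess, leaving out dim genes, averaging a gene's probe sets, fitting each probe set alone, a trended robust variance, array weights, the replicate block, leaving out arrays, only the arrays compared, a regression on the level, and covariates.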

Additional observations from a re-analysis of the deposited data

Results flagged for a closer look

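Foxo3 in GFP4 replicate 2 lay at 9.60, apart from the other 3 GFP4 arrays at 10.20, 10.21 and 10.23. Bcl2 in the same array lay at 10.89, above the others at 10.19, 10.23 and 10.28. Both gaps, as shares of the range, exceed Dixon's critical value for 4 arrays. Of 20 genes checked 2 met this, and chance alone flags about 1 in 20 groups. This array is also the one apart on the third principal component, at -68.7; what sets it apart was not tested.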

How the results depend on the processing

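For the slope, the count of members past the threshold (1) was 2 (Sesn2 and Pmaip1) with arrays centred on medians, cyclic loess, the mean over probe sets or the variance trend, and 0 with array quality weights (Sesn2 0.30, adjusted p = 0.192), the 3 prime to 5 prime covariates (0.27, adjusted p = 0.18), the interquartile range as a covariate (0.28, adjusted p = 0.0518) or the replicate block (0.30, adjusted p = 0.0665). Leaving out single arrays gave 0 to 2. The count for GFP4 against GFP0 (1) was 0 in all alternatives but the filter on dim genes and the mean over probe sets, and 0 to 1 without single arrays. GFP4 against GFP1 gave 0 to 1 (Sesn1, without GFP1 replicate 3), and any difference 0 to 1 (Pmaip1, without GFP0 replicate 2). For these changes, the cause was not tested.

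With the replicate number as a block the slope called 337 genes in place of 609. Same-numbered arrays correlated in their deviations with r from -0.26 to 0.58 (median 0.05, 23 pairs). Differently numbered arrays had r from -0.63 to 0.48 (median -0.05, 54 pairs). With so few arrays per level, these ranges cannot decide whether the numbers pair the samples. Over the alternatives the count of all genes ran from 90 (array weights) to 798 for the slope (609), from 2 to 363 for GFP4 against GFP0 (306), from 28 to 312 for GFP4 against GFP1 (180), and from 11 to 335 for any difference (127).

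Bbc3 minus Pmaip1 was 0.23, 0.17 without the GFP0 and GFP4 arrays numbered 1 and 0.19 without these and GFP4 replicate 2, neither past the threshold, and 0.18 to 0.28 without single arrays. Sesn2 minus Sesn3 turned to -0.0202 with the mean over probe sets and ran from -0.0297 to 0.127 without single arrays.

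Signs turned only for values that did not pass. Ccng1, GFP4 against GFP0, was 0.0316 centred, 0.17 weighted and 0.19 without 3 arrays (-0.13 to 0.13 without single arrays), and its slope -0.0497 over probe sets and -0.0426 with 3 prime to 5 prime covariates. Bbc3 was -0.00638 (slope) and -0.0316 (GFP4 against GFP0) with cyclic loess, -0.0039 and -0.066 weighted, and -0.0604 to 0.0701 and -0.31 to 0.35 without single arrays. The Mdm2 slope was -0.0307 blocked, -0.14 with the covariates and -0.0282 to 0.149 without single arrays, and its difference between GFP4 and GFP0 was -0.0808 with the covariates. Mdm4 was 0.0158 (slope) and 0.0146 (GFP4 against GFP0) over probe sets, and -0.158 to 0.0353 and -0.801 to 0.165 without single arrays.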
